A study of Homo sapiens with 12 samples.

Results

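MYC and 9 regulators of the G1 phase of the cell cycle (CCND1, CCNE1, CDK4, CDK6, E2F1, E2F3, CDKN1A, CDKN1B and CDKN2A) were examined for occupancy by SREBP2 and RORγ and for H3K27ac in HCC70 cells. These 10 genes, of 20090 protein-coding genes, were chosen by name. For each gene, every deposited region that met a window around any GENCODE transcript start (1000 bp before it and 100 bp after it) was taken as a promoter region. Every region within the gene and 50 kb either side was taken as a region of its locus. HCC70 is an established line from a triple-negative breast cancer. The cells were given vehicle or XY018, a compound that antagonizes the orphan nuclear receptor RORγ, for 24 h, with the antagonist at 5 µM per the labels and at a lower dose per the methods of the study. Chromatin was immunoprecipitated with an antibody to SREBP2, RORγ or acetylated histone H3 lysine 27 (H3K27ac), and each of these 6 combinations was 1 library.

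MYC is a transcription factor that drives cell growth and entry into the cycle. D-type cyclins such as CCND1 activate CDK4 and CDK6, and cyclin E, encoded by CCNE1, activates CDK2. Together these kinases phosphorylate the retinoblastoma protein and release E2F factors, which transcribe genes of DNA replication. The inhibitors p21 (CDKN1A) and p27 (CDKN1B) bind cyclin-CDK complexes, and p16, a product of CDKN2A, binds CDK4 and CDK6. SREBP2 is the main activator of cholesterol synthesis genes, and H3K27ac marks active promoters and enhancers.

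The values compared were fragments at the summit of a region, recovered from the deposited fold enrichment and −log10 p. The most common local background of a library, its genome-wide background, was 1.03 and 1.21 fragments for SREBP2 with vehicle and XY018, 0.787 and 0.712 for RORγ, and 1.17 and 1.07 for H3K27ac. Ratios of XY018 to vehicle were scaled by these backgrounds. Lists held 117441 and 69700 regions for SREBP2, 167264 and 129954 for RORγ, and 95099 and 105371 for H3K27ac. With 1 library per group there is no replicate check and no test between treatments. All intervals are exact 95% intervals for counting error only, and a ratio was counted as lower or higher when it was past 1.5-fold.

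The letters of the reference genome under the SREBP2 summits are shown first, for 4 promoters that span the range of the values below. CCNE1 had the highest SREBP2 summit with vehicle, CDK6 the lowest ratio, E2F3 the highest ratio, and CDK4 the most GC boxes. Each sequence covers 100 bp either side of the vehicle summit (GRCh37, strand of the gene). Capitals mark the GC box GGGCGG or its complement CCGCCC. They lie at chr19:30303074-30303274 (plus strand, no exon, within CCNE1), chr7:92465908-92466108 (minus strand, upstream of the first CDK6 start), chr6:20402825-20403025 (plus strand, reaching an annotated exon of E2F3) and chr12:58148760-58148960 (minus strand, no exon, within CDK4).
CCNE1: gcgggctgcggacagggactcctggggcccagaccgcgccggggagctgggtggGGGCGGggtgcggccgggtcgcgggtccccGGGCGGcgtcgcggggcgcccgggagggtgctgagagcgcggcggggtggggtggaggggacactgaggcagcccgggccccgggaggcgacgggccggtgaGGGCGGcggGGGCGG
CDK6: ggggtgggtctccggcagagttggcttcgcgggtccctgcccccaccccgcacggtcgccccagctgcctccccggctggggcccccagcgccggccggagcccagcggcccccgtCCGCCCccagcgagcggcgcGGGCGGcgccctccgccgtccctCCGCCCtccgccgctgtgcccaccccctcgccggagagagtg
E2F3: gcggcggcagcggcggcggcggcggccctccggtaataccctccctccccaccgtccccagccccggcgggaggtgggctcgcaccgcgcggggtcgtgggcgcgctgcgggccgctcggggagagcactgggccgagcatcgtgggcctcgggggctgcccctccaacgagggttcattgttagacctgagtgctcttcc
CDK4: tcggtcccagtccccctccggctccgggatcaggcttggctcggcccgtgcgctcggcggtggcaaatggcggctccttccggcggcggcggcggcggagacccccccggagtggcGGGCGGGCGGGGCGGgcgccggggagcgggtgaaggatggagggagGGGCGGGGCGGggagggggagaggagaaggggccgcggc

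The CCNE1 window held 4 GC boxes, the CDK6 window 3, the CDK4 window 5 and the E2F3 window 0. Across all 10 genes, a GC box lay within 100 bp of the SREBP2 vehicle summit at 8, the exceptions being E2F3 and CDKN2A. The same letters lay at 69.9% of the SREBP2 promoter summits of all protein-coding genes. The median GC content was 77.1% at the summits of the 10 genes and 74.6% at all summits. None of the 10 windows held TCACNCCAC (the SRE, 0.670% of all summits), CACGTG (the E-box, 4.76%), CCAAT (8.32%), the E2F letters TTTCCCGC, TTTGGCGC, TTTCGCGC or TTTGCCGC (2.32%), or the RORE core (0.106%). The hexamer AGGTCA, recognised by many nuclear receptors, was found in 1 of the 10 windows, against 5.37% of all summits. In the longer window around the first start of each gene, the E2F letters were present at CCND1, CCNE1, E2F1 and E2F3, 4 of 10 genes, against 7.91% of all genes. The E-box was present at CCND1, CDK6 and E2F1 (18.3% of all genes). The same windows held CCAAT at 7 of 10 genes (74.1% of all genes), the GC box at 9 (64.7%), AGGTCA at 5 (51.1%), and the SRE (6.51%) and the RORE core (2.57%) at 0. The first start is not always at the regions described below. The SREBP2 vehicle promoter region began 31.2 kb downstream of it at CDKN1B and 1.95 kb downstream at CDKN1A. Both strands were searched, and a match is a description of letters, not of binding.

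All 10 genes had a promoter region in all 6 libraries. Among all protein-coding genes the SREBP2 lists had a promoter region at 70.6% (vehicle) and 62.7% (XY018), the RORγ lists at 62.7% and 61.5%, and the H3K27ac lists at 66.8% and 68%. Most of the other genes thus carried such regions too. At q of at most 1e-05, 9 of 10 genes had a promoter region for SREBP2 with XY018 and for RORγ with vehicle, MYC being the gene without one in both, and 10 of 10 in the other libraries. The counts fell when the summit itself had to lie inside the window. With vehicle and XY018 they were then 9 and 8 for SREBP2, 8 and 9 for RORγ, and 9 and 7 for H3K27ac.

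With XY018, SREBP2 summits were below the vehicle level at all 10 promoters. They summed to 430 fragments with vehicle and 310 with XY018, a ratio over background of 0.610 (0.526 to 0.708). The median over the 10 genes was 0.629 and the range 0.398 to 0.846. Of the 10 ratios, 5 were past 1.5-fold lower, beside 62.5% of the 12336 protein-coding genes compared, and 0 were past 1.5-fold higher, beside 0.0567%. The median of all compared genes was 0.621, so the decrease at these promoters was of the size found across promoters. The interval of each of the 10 ratios included that median. The fragment length differed between the SREBP2 libraries (185 and 205 bp). Scaled by tags per kb, which removes that difference, all SREBP2 ratios were 0.15 higher on the log2 scale. The median was then 0.697 for the 10 genes and 0.688 for all genes, and 5 of 10 genes and 44.9% of all genes were past 1.5-fold lower.

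RORγ summits at the same promoters summed to 341 fragments with vehicle and 273 with XY018, a ratio of 0.885 (0.752 to 1.04), with an interval that included 1. The median was 0.909 over the 10 genes and 0.968 over all genes. CDKN1B, with a ratio of 0.577, was the 1 gene past 1.5-fold lower (9.49% of all genes), and 0 were past 1.5-fold higher (7.34%). No single RORγ ratio of the 10 had an interval without 1. H3K27ac summits summed to 1414 and 1705 fragments, a ratio of 1.32 (1.23 to 1.42). Their median was 1.29, beside 1.27 over all genes. MYC and CDK4 were past 1.5-fold higher, 2 of 10 genes beside 22.7% of all genes, and 0 were past 1.5-fold lower, beside 3.07%. CDKN1A was the 1 gene with less H3K27ac with XY018 than with vehicle. The H3K27ac interval of CDK4 lay above the all-gene median. That of CDKN1A ended just below it (1.269 against 1.274), and the intervals of the other genes included it.

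**Figure D1:**
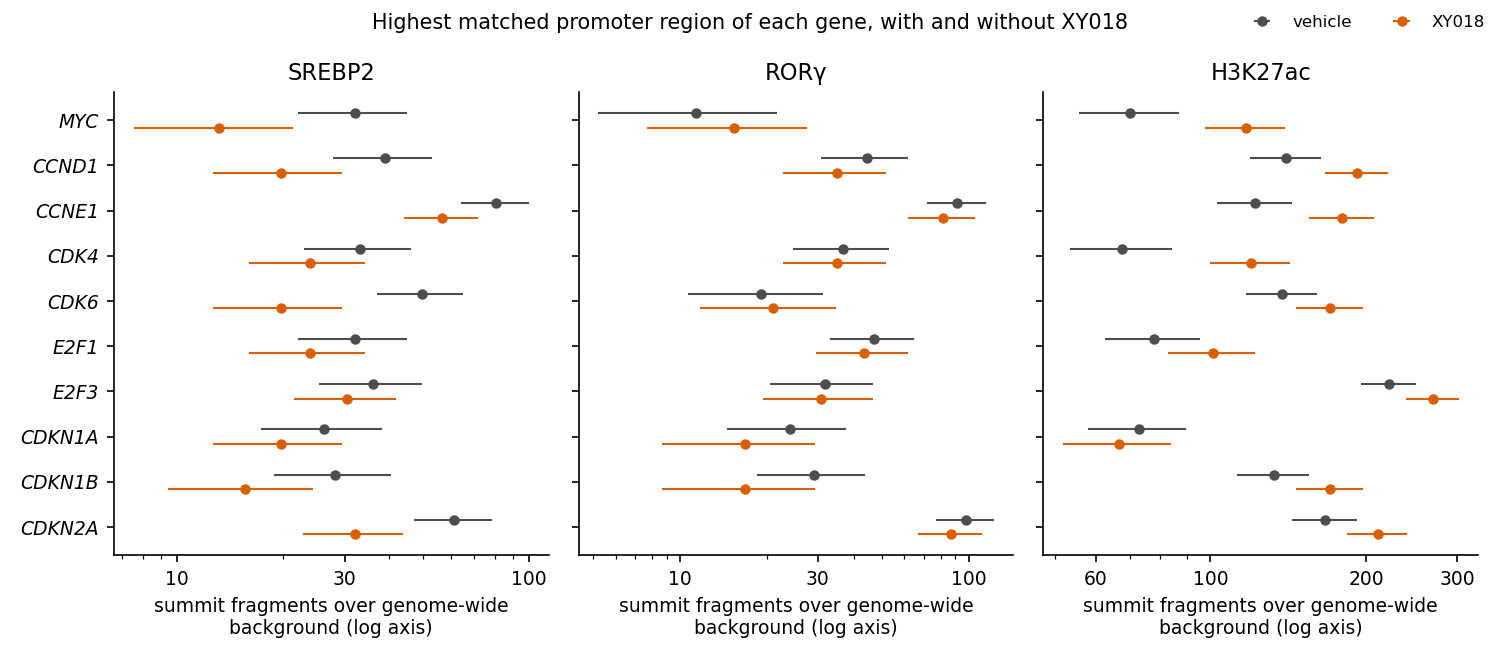
Summit fragments over the genome-wide background (log axis) at the highest matched promoter region of each gene, with vehicle (grey) and XY018 (orange), for SREBP2, RORγ and H3K27ac; bars are exact 95% Poisson intervals of 1 library. SREBP2 points lie left of their vehicle points at all 10 genes, and H3K27ac points lie right of them at all but CDKN1A.

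**Figure D2:**
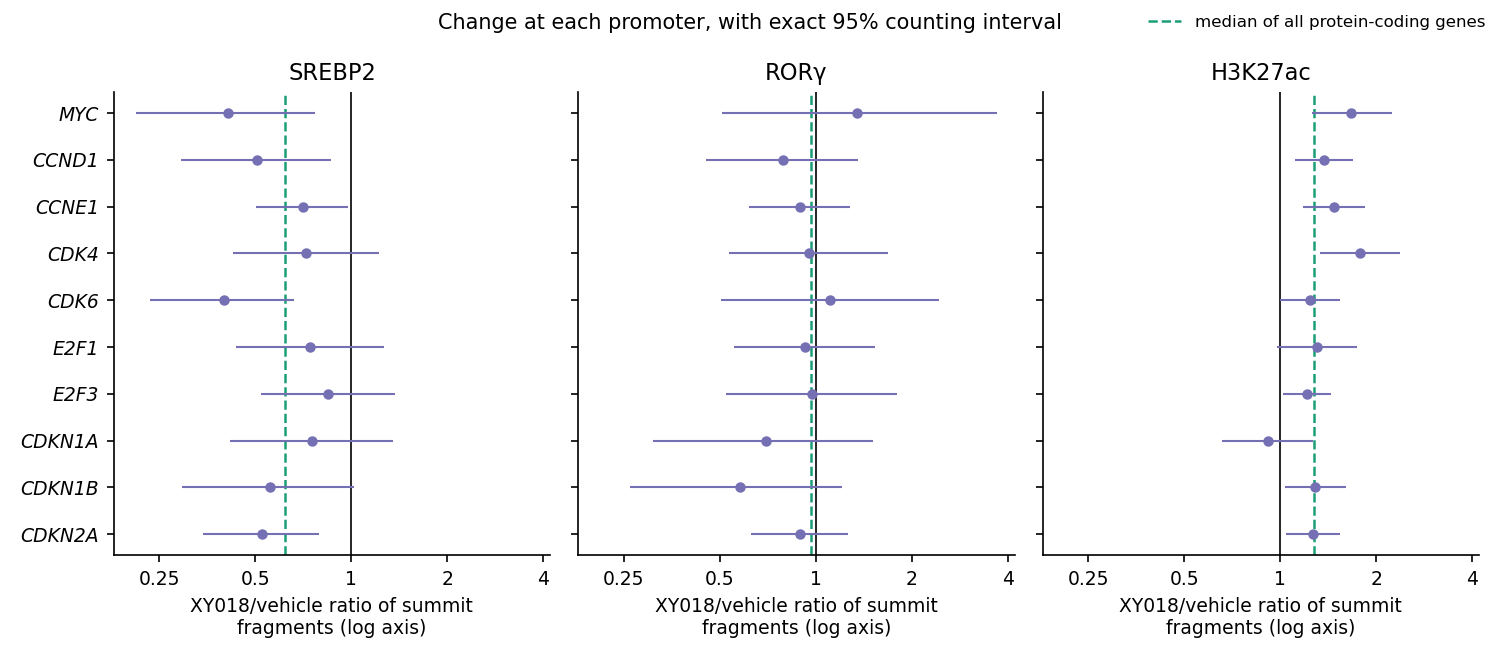
XY018 to vehicle ratio of summit fragments at each promoter (log axis), with exact 95% counting intervals; the solid line is 1 and the dashed line the median of all protein-coding genes (0.621 for SREBP2, 0.968 for RORγ, 1.27 for H3K27ac). MYC and CDK6 had the lowest SREBP2 ratios, and MYC and CDK4 the highest H3K27ac ratios.

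At MYC, SREBP2 was called in 4 promoter regions with vehicle, since the gene has several annotated starts. The strongest, on chromosome 8 at 128749881 to 128750324 (hg19) with its summit in an annotated UTR, held 33 fragments (fold 10.7). With XY018 it held 16 fragments (fold 4.10), a ratio of 0.410 (0.211 to 0.767). The other 3 vehicle regions, with 23, 13 and 15 fragments, overlapped no region in the XY018 list. Of all SREBP2 vehicle promoter regions, 74.0% overlapped one. Absence from a list is a threshold call and not a level of 0. At the strongest site the local background was 2.13 times the genome-wide one with vehicle and 2.59 times with XY018, and a higher local background raises the number of fragments a call needs. Over the whole MYC locus there were 15 SREBP2 regions with vehicle and 5 in the XY018 list. Of the 15, 3 overlapped an XY018 region, beside 39.8% of all SREBP2 vehicle regions.

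RORγ at MYC was weak under both treatments. The 1 promoter region held 9 fragments with vehicle and 11 with XY018 (ratio 1.35, 0.509 to 3.69), the lowest RORγ level of the 10 genes in both libraries, and its interval overlapped that of the next gene. H3K27ac went the other way from SREBP2 at the same start, as over all compared genes (median ratios 1.27 and 0.621). Its strongest summit held 82 fragments with vehicle (fold 24.1) and 125 with XY018 (fold 47.2), a ratio of 1.67 (1.25 to 2.23) with summits 27 bp apart. Adjacent vehicle regions of 536, 1590 and 1374 bp all overlapped a single region of 4849 bp with XY018. H3K27ac regions at the locus numbered 13 and 25, covering 8.60 and 15.2 kb. The strongest H3K27ac region away from the promoter, 24.3 kb downstream of the 5′ end, held 31 fragments with vehicle and 47 with XY018 (ratio 1.66, 1.03 to 2.70), and overlapped no annotated promoter.

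**Figure D3:**
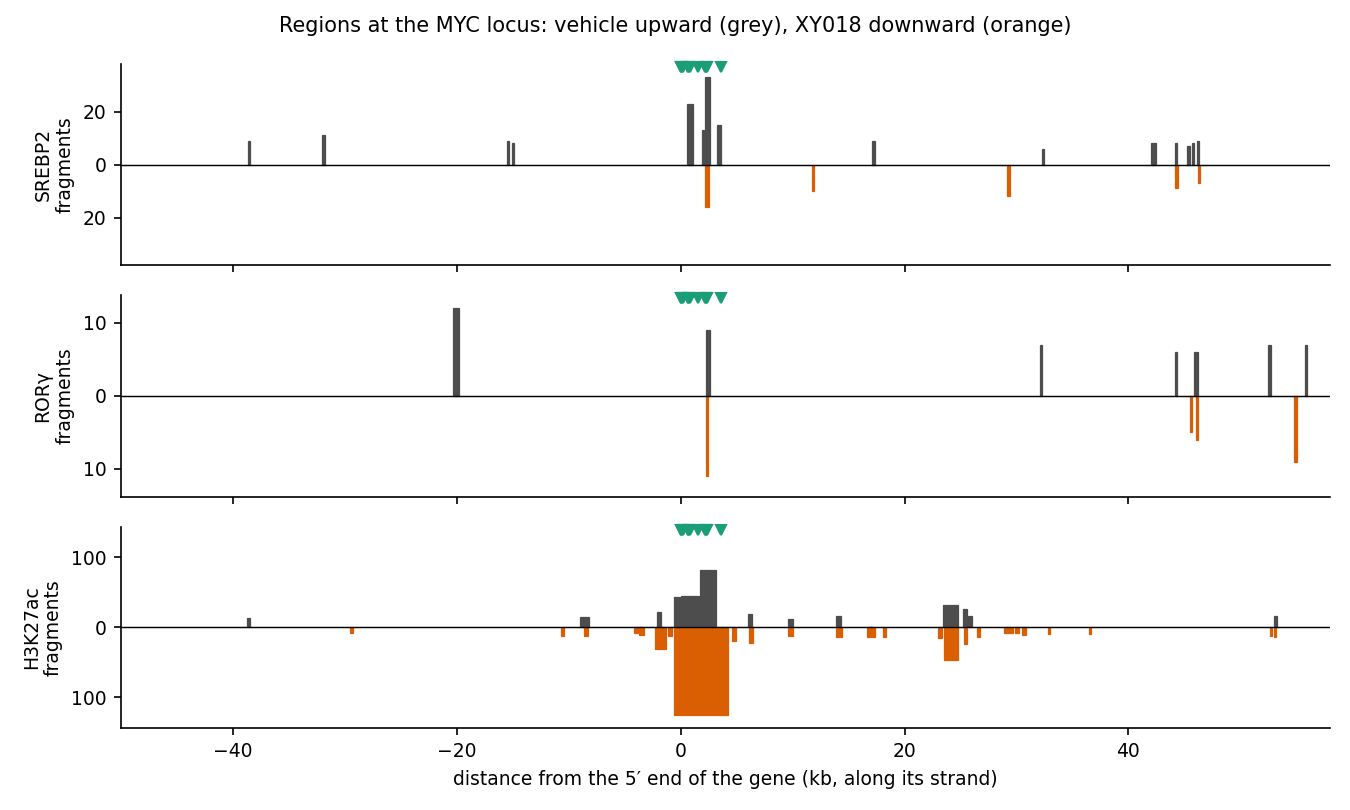
Regions at the MYC locus by distance from the 5′ end of the gene (kb), with bar height the fragments at the summit, vehicle upward and XY018 downward; triangles mark annotated transcript starts. SREBP2 has 4 vehicle and 1 XY018 region over the starts, while the H3K27ac region there is taller (82 and 125 fragments) and wider with XY018.

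Among the 9307 protein-coding genes with a promoter region in every library, the 3 whose 6 summit levels lay nearest to those of MYC were PREP, SEC22C and NKTR, at Euclidean distances of 0.302, 0.335 and 0.348 in log2 units. Like MYC, with 32.1 and 13.2 times background for SREBP2, PREP had 27.2 and 13.2 times. Their H3K27ac levels were 70.1 and 117 times background at MYC and 73.5 and 114 at PREP. SEC22C and NKTR had equal levels in every library but SREBP2 with XY018 (13.2 and 12.4 times background). Whether they share promoter regions was not examined.

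The cyclin gene CCND1, which encodes cyclin D1, lay among many factor sites. Its strongest matched SREBP2 promoter regions held 40 fragments with vehicle and 24 with XY018 (ratio 0.508, 0.293 to 0.863). The summits of this pair were 805 bp apart within 1 broad region, so they were not the same position. At a site 0.925 kb downstream of the 5′ end, just outside the promoter window, the summit was at the same base in both libraries and held 44 and 28 fragments (0.539, 0.323 to 0.885). RORγ held 35 and 25 fragments at the promoter (0.790, 0.453 to 1.36), again with summits 802 bp apart. H3K27ac held 164 and 205 (1.37, 1.11 to 1.69), with summits 3 bp apart.

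With vehicle, the strongest SREBP2 and RORγ sites of the CCND1 locus lay 61.3 kb downstream of its 5′ end, beside FGF19, which encodes a growth factor. On chromosome 11 at 69516998 to 69517441, SREBP2 held 48 fragments with vehicle and 19 with XY018 (ratio 0.335, 0.186 to 0.581). RORγ at this site held 42 and 19 fragments (0.50, 0.275 to 0.879), so both factors were lower there. With XY018 the highest SREBP2 summit of the locus, 31 fragments, lay at 10.2 kb, and the highest RORγ summit was at the FGF19 promoter. At the FGF19 promoter next to it, SREBP2 held 41 and 25 fragments (0.516, 0.301 to 0.869) whereas RORγ held 36 and 40 (1.23, 0.763 to 1.98). An SREBP2 site at −48.0 kb from the 5′ end of CCND1 held 34 and 11 fragments (0.274, 0.125 to 0.553).

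CCNE1 had the strongest SREBP2 summit of the 10 genes in both libraries. The region on chromosome 19 at 30302166 to 30303717, with its summit in an intron, held 83 fragments with vehicle and 69 with XY018 (ratio 0.704, 0.504 to 0.980). RORγ held 72 and 58 there (0.891, 0.619 to 1.28), the second level after CDKN2A. H3K27ac held 143 and 192 (1.47, 1.18 to 1.84), with summits 27 bp apart. Both factor intervals at this promoter included the median ratio of all genes.

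Downstream of CCNE1, SREBP2 and RORγ summits lay together 61.4 kb from its 5′ end, where no annotated promoter was overlapped. SREBP2 held 70 fragments with vehicle and 55 with XY018 (0.665, 0.458 to 0.960) and RORγ 71 and 57 (0.888, 0.615 to 1.28). H3K27ac at the same place held 43 and 33 fragments (0.841, 0.518 to 1.35). At a second cluster 32.6 kb downstream, H3K27ac held 54 and 86 (1.74, 1.23 to 2.50). At this locus 23 SREBP2 regions were called with vehicle and 10 with XY018, and 34 and 25 for RORγ.

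The kinase genes had SREBP2 ratios of 0.398 (CDK6) and 0.722 (CDK4), with intervals that overlapped. CDK6 had the lowest SREBP2 ratio of the 10 genes. Its region on chromosome 7 at 92465675 to 92466312, with the summit at −121 bp from the nearest start and outside the gene (the sequence shown above), held 51 fragments with vehicle and 24 with XY018 (ratio 0.398, 0.234 to 0.659). A second region, at 92464424 to 92464824, held 42 and 16 fragments (0.322, 0.169 to 0.586), and another, at 92463158 to 92463547, 23 and 16 (0.589, 0.291 to 1.16). The remaining vehicle region, with 16 fragments, overlapped none with XY018. All matched SREBP2 sites of this promoter were therefore lower, and the intervals of 2 of the 3 were below 1. Only that of the second region lay below 0.621, the median SREBP2 ratio over the promoters of all compared genes.

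RORγ at the CDK6 promoter held 15 fragments in both libraries at the site of the second SREBP2 region (1.11, 0.504 to 2.43) and 18 and 11 at that of the first (0.676, 0.288 to 1.51). The corresponding H3K27ac regions merged with XY018. At the first site H3K27ac held 141 and 182 fragments with summits 10 bp apart (1.41, 1.13 to 1.77). The pair counted for CDK6 in the summaries above was the other vehicle region, with 161 and 182 fragments (1.24, 0.996 to 1.54). Its summits were 1403 bp apart. CDK6 has the longest locus, 332 kb, and the most H3K27ac regions of the 10, 44 with vehicle and 48 with XY018. Regions within the gene 190 and 200 kb from its 5′ end held 41 and 44 fragments (1.18, 0.751 to 1.85) and 46 and 57 (1.36, 0.904 to 2.05).

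CDK4, the partner kinase, had a higher SREBP2 ratio than CDK6, with an overlapping interval. Its promoter region on chromosome 12 at 58148638 to 58149928, with the summit in an intron, held 34 fragments with vehicle and 29 with XY018 (ratio 0.722, 0.424 to 1.22). RORγ held 29 and 25 (0.953, 0.535 to 1.69). H3K27ac held 79 and 128, the highest ratio of the 10 genes at 1.78 (1.33 to 2.38), and the vehicle value was the lowest H3K27ac level of the 10. The locus is dense in genes. At the shared promoter of AGAP2 and TSPAN31, 17.6 kb from the 5′ end of CDK4, RORγ held 42 and 32 fragments (0.842, 0.515 to 1.37). H3K27ac at the TSFM promoter, at −26.98 kb from the 5′ end, held 19 and 40 fragments (2.31, 1.31 to 4.22).

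E2F3 and E2F1 encode activating E2F factors, and E2F3 had the highest SREBP2 ratio of the 10 genes. E2F3 had 37 SREBP2 fragments under both treatments on chromosome 6 at 20402402 to 20404187, a ratio over background of 0.846 (0.522 to 1.37). The fold enrichment of this site was 8.17 with vehicle and 13.7 with XY018, because the local background was 3.55 times the genome-wide one with vehicle and 1.46 times with XY018. The direction at E2F3 therefore depended on which background was used. RORγ held 25 and 22 fragments (0.973, 0.523 to 1.80). E2F3 had the highest H3K27ac level of the 10 in both libraries, with 259 and 287 fragments (1.21, 1.02 to 1.44), and with vehicle its interval lay above that of the next gene, CDKN2A. Away from its promoter the factors were sparse. The strongest distal SREBP2 region with vehicle held 10 fragments and was not called with XY018.

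E2F1 has 1 annotated start. Its highest SREBP2, RORγ and H3K27ac promoter summits lay 315 to 408 bp downstream of that start. In the region on chromosome 20 at 32273533 to 32274441, SREBP2 held 33 fragments with vehicle and 29 with XY018 (ratio 0.744, 0.436 to 1.26). RORγ held 37 and 31 (0.926, 0.556 to 1.53), and H3K27ac 91 and 108 (1.30, 0.975 to 1.74). None of these intervals was without 1. The strongest sites of this locus belonged to neighbouring genes. At the ACTL10 and NECAB3 promoter, 19.1 kb from the E2F1 5′ end, SREBP2 held 48 and 32 fragments (0.564, 0.349 to 0.901), RORγ 43 and 43 (1.11, 0.707 to 1.73) and H3K27ac 45 and 71 (1.73, 1.17 to 2.57). The ZNF341 promoter, at −46.0 kb, had the highest H3K27ac of the locus with XY018, 141 and 196 fragments (1.52, 1.22 to 1.90).

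Among the inhibitors, CDKN1A, which encodes p21, had the lowest H3K27ac ratio of the 10 genes. Its promoter region on chromosome 6 at 36645958 to 36648900 held 85 H3K27ac fragments with vehicle and 71 with XY018 (0.915, 0.658 to 1.27). SREBP2 held 27 and 24 fragments at the promoter (0.752, 0.416 to 1.35) and RORγ 19 and 12 (0.698, 0.309 to 1.52). With vehicle, the larger SREBP2 summits were distal. One at −15.5 kb from the 5′ end, at 36628519 to 36628988, held 51 and 35 fragments (0.581, 0.367 to 0.911), another at 7.71 kb held 38 and 15 (0.334, 0.171 to 0.622), and one at 44.02 kb held 41 and 20 (0.413, 0.229 to 0.721). All of these 3 intervals lay below 1, and all included 0.621, the median SREBP2 ratio over the promoters of all compared genes.

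RORγ values at the same 3 distal CDKN1A sites pointed the other way, with 28 and 35 fragments (1.38, 0.817 to 2.36), 16 and 23 (1.59, 0.80 to 3.22), and 19 and 23 (1.34, 0.697 to 2.60). Each of these intervals included 1, so no difference in RORγ was detectable at this depth. H3K27ac differed in direction between these sites. At −15.5 kb it held 24 fragments with vehicle and 38 with XY018 (1.73, 1.01 to 3.02), higher where SREBP2 was lower. At the site 7.71 kb downstream, inside the gene, H3K27ac was lower along with SREBP2, with 48 fragments with vehicle and 26 with XY018 (0.593, 0.353 to 0.976). At the most downstream site H3K27ac held 68 and 63 (1.02, 0.709 to 1.45). CDKN1A had the highest density of H3K27ac regions of the 10 loci, 34.3 per 100 kb with vehicle and 36.1 with XY018.

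CDKN1B, which encodes p27, had 29 (vehicle) and 19 (XY018) SREBP2 fragments in its promoter region on chromosome 12 at 12869676 to 12870749 (ratio 0.555, 0.294 to 1.02). The summits were 725 bp apart, and the local background was 1.0 and 2.59 times the genome-wide one, so that the fold enrichment went from 14.8 to 4.82. RORγ held 23 and 12 fragments (0.577, 0.262 to 1.21), the lowest RORγ ratio of the 10, with summits 32 bp apart. H3K27ac held 155 and 182 (1.29, 1.03 to 1.60). The neighbouring APOLD1 promoter was stronger than that of CDKN1B for H3K27ac, with 238 and 291 fragments (1.34, 1.12 to 1.60). CDKN1B was the 1 locus with more SREBP2 regions with XY018 than with vehicle, 7 and 3. The 3 of these 7 that overlapped no vehicle region held 6, 8 and 11 fragments. Another 3 of the 7, with 24, 18 and 18 fragments, all overlapped 1 vehicle region of 34 fragments, so that site was split.

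CDKN2A produces p16 and, from a separate upstream first exon, ARF, which stabilizes p53. Its promoter windows held 5 SREBP2 regions with vehicle, and all 5 overlapped a region with XY018. With vehicle, the strongest SREBP2 and RORγ summits of the gene were not at the p16 or ARF starts but over an internal exon with annotated short transcripts, on chromosome 9 at 21970763 to 21971309. SREBP2 held 63 fragments there with vehicle and 39 with XY018 (ratio 0.524, 0.342 to 0.793). Its vehicle interval there (48.4 to 80.6) overlapped that of the p16 start (48 fragments, 35.4 to 63.6). A vehicle site 26.7 to 27.1 kb from the 5′ end held 60. With XY018 the SREBP2 summit over the exon was below those at the p16 start (43 fragments) and at 26.8 kb (52 fragments). The RORγ summit over the exon was the highest in both libraries. RORγ held 77 and 62 (0.890, 0.627 to 1.26), the highest RORγ level of the 10 genes in both libraries. H3K27ac held 24 and 41 fragments at that exon (1.87, 1.1 to 3.24), well below its level at the starts.

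At the p16 start, H3K27ac held 195 fragments with vehicle and 225 with XY018 (1.26, 1.04 to 1.54), with summits 15 bp apart. The region there was 1833 bp wide with vehicle and 3129 bp with XY018. SREBP2 held 48 and 43 fragments at this start (0.758, 0.491 to 1.17) and RORγ 22 and 17 (0.854, 0.426 to 1.69). At the ARF start, H3K27ac held 172 and 213 (1.36, 1.1 to 1.67), with summits 271 bp apart. The promoter of CDKN2B, a related inhibitor, carried 67 and 43 SREBP2 fragments (0.543, 0.362 to 0.809) and 48 and 47 RORγ fragments (1.08, 0.709 to 1.65) at −10.7 kb from the CDKN2A 5′ end. Over this locus SREBP2 regions numbered 12 and 11, RORγ 10 and 10, and H3K27ac 22 and 19.

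**Figure D4:**
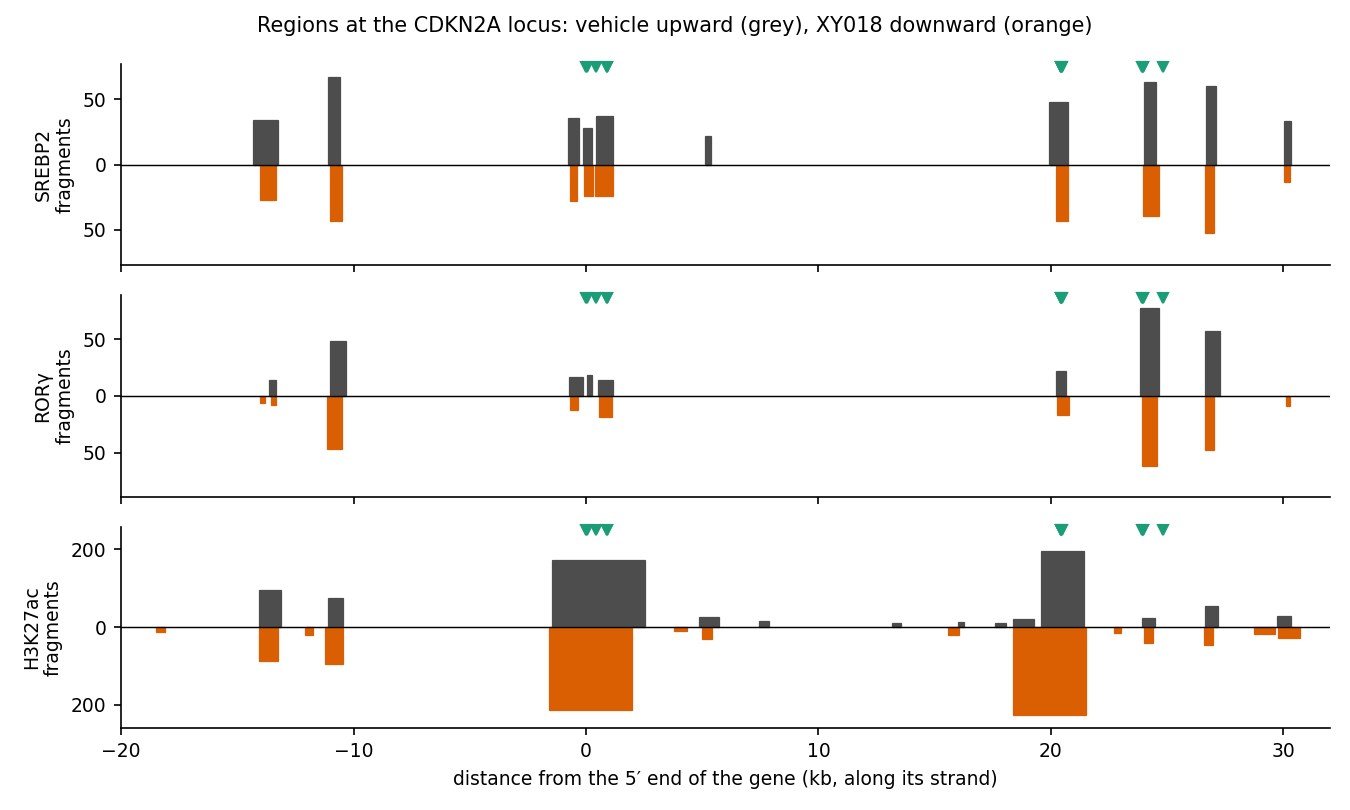
Regions around CDKN2A by distance from its 5′ end (kb), with bar height the fragments at the summit, vehicle upward and XY018 downward; triangles mark annotated starts. The tallest RORγ bars (77 and 62 fragments) stand over the internal exon near 24.2 kb, where H3K27ac is low (24 and 41), and the tallest H3K27ac bars at the p16 start near 20.5 kb and the ARF starts at the left.

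Local background differed between the loci, which bears on how levels compare between genes. Over the regions of the CDKN2A locus its median was 1.92 to 2.36 times the genome-wide background in the 6 libraries, at percentiles 95.7 to 99.2 of all protein-coding loci. For MYC it was 1.42 to 1.95 times, for CCNE1 1.39 to 1.75 times and for CDK6 1.09 to 1.57 times. At CDK4 it was 1.0 to 1.05 times. Copy number was not measured, and its part in the levels was not tested. By fold enrichment, CCNE1, CDKN2A and CDK6 had the highest SREBP2 values with vehicle, in that order. The fold adds 1 to the summit and to the local background before dividing, so it corrects for local background only in part. CDKN2A had 63 fragments over a local background 1.95 times the genome-wide one, and CCND1 had 40 over 1.05 times. By fragments over local background without the added 1, CDKN2A was therefore below CCND1, and the order by fold did not hold.

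Read in order of summit level, neighbouring genes mostly could not be separated. For SREBP2 with vehicle, the order ran from CCNE1 through CDKN2A, CDK6, CCND1, E2F3, CDK4, MYC, E2F1 and CDKN1B to CDKN1A, and the intervals of all neighbours in it overlapped. With XY018, CCNE1 was again first and MYC last. The interval of CCNE1 lay above that of the matched CDKN2A region (39 fragments) but overlapped that of the highest CDKN2A promoter region with XY018 (43 fragments, 31.1 to 57.9). For RORγ, CDKN2A and CCNE1 stood above the other 8 genes in both libraries and MYC was last in both.

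The 10 loci together spanned 1451 kb. SREBP2 regions there numbered 152 with vehicle and 100 with XY018, RORγ regions 152 and 132, and H3K27ac regions 203 and 233. Per 100 kb this was 10.5 and 6.89 for SREBP2, 10.5 and 9.10 for RORγ, and 14 and 16.1 for H3K27ac. The loci of all protein-coding genes held 5.35 and 3.21, 6.94 and 5.44, and 4.74 and 5.25. The density at single loci ranged for SREBP2 with vehicle from 2.19 at CDKN1B to 26.5 at CCND1.

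**Figure D5:**
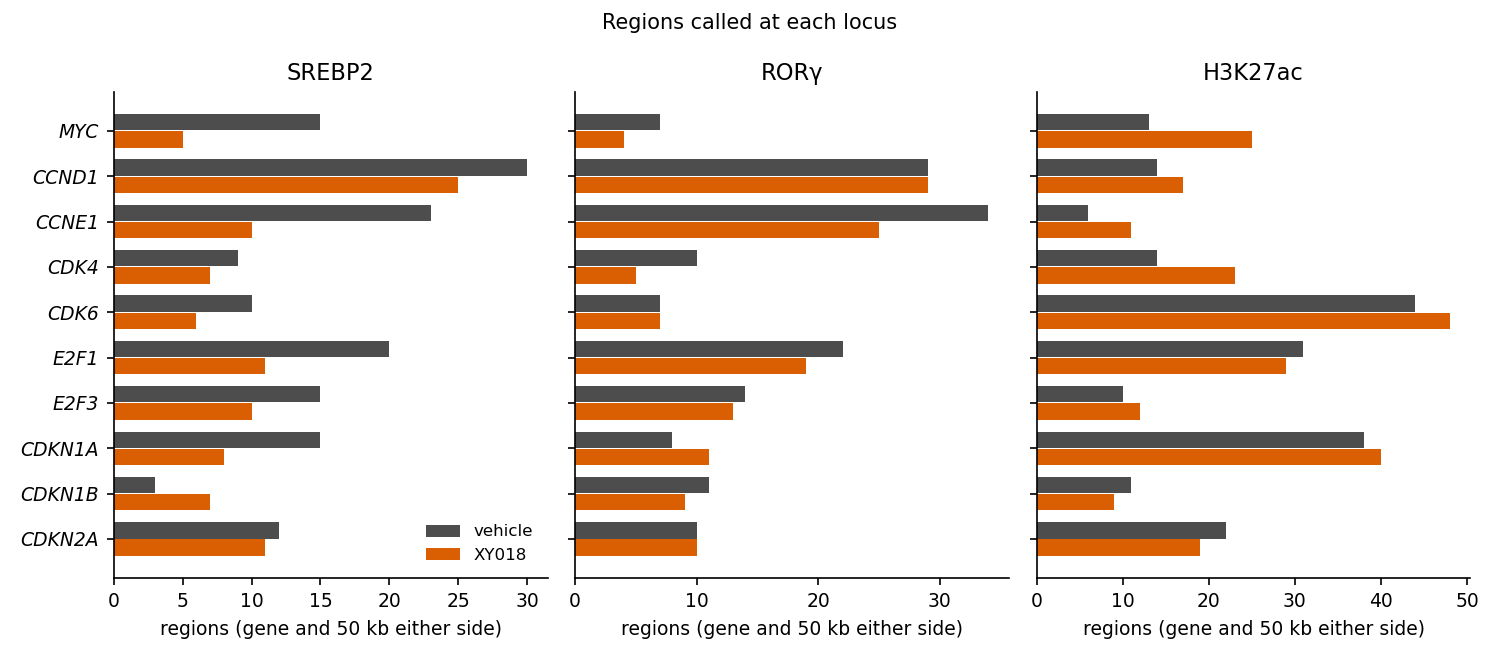
Number of regions called within each gene and 50 kb either side, with vehicle (grey) and XY018 (orange), 1 library per bar. SREBP2 bars are shorter with XY018 at all loci but CDKN1B, by the largest factor at MYC (15 and 5). H3K27ac bars are longer with XY018 at all loci but E2F1 (31 and 29), CDKN1B (11 and 9) and CDKN2A (22 and 19). The loci with longer bars include MYC (13 and 25), CCNE1 (6 and 11) and CDK4 (14 and 23).

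Of the SREBP2 vehicle regions at these loci, 77 of 152 (50.7%, 42.4 to 58.9) overlapped an XY018 region, beside 39.8% over all regions. For RORγ it was 74 of 152 (48.7%, 40.5 to 56.9), beside 36.4%, and for H3K27ac 138 of 203 (68.0%, 61.1 to 74.3), beside 69.3%. Promoter and distal regions had different kept shares, a difference that was not tested. For SREBP2, 19 of 25 promoter regions (76%) and 58 of 127 distal regions (45.7%) were kept, beside 74.0% and 31.4% over all regions. For RORγ the shares were 17 of 21 (81.0%) and 57 of 131 (43.5%), beside 78.6% and 30.5%.

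SREBP2 and RORγ were often called at the same sites of these loci. With vehicle, 81 of 152 SREBP2 regions (53.3%, 45.0 to 61.4) overlapped a RORγ region, beside 49.0% of all SREBP2 regions, and 79 of 152 RORγ regions (52.0%) overlapped an SREBP2 region, beside 34.6%. H3K27ac regions were met by 81 of 152 SREBP2 regions (53.3%), beside 27.3%, and by 63 of 152 RORγ regions (41.4%), beside 16.7%. With XY018, the 100 SREBP2 regions, of which 80 overlapped a vehicle region, overlapped RORγ at 73% and H3K27ac at 70%, beside 64.0% and 36.6%. Regions of 1 locus share libraries and chromatin and are not independent replicates.

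A list of 50 other genes of the same step (further cyclins and kinases, pocket proteins and E2F partners, inhibitors, the MYC network, parts of the SCF ubiquitin ligase and E2F-regulated replication genes) was read in the same way. SREBP2 promoter regions were called at 46 (vehicle) and 45 (XY018) of the 50, beside 70.6% and 62.7% of all protein-coding genes. RORγ regions were called at 41 and 42, beside 62.7% and 61.5%, and H3K27ac regions at 49 and 50, beside 66.8% and 68%. The calls that differed were MGA, a repressor partner of MAX, with 20 SREBP2 fragments with vehicle only, MCM6, a subunit of the replicative helicase, with 14 RORγ fragments with XY018 only, and CCND2, a second D-type cyclin, with 11 H3K27ac fragments with XY018 only. Their median ratios were 0.646 for SREBP2 over 45 genes, 0.995 for RORγ over 41 and 1.2 for H3K27ac over 49. For SREBP2, 25 of 45 were past 1.5-fold lower, beside 62.5% of all genes, and 19 of 45 when scaled by tags per kb, beside 44.9%. For RORγ 3 of 41 were lower and 1 higher, beside 9.49% and 7.34%, and for H3K27ac 1 of 49 lower and 10 higher, beside 3.07% and 22.7%.

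Within that list SKP2, which encodes the ubiquitin ligase subunit that marks p27 for degradation, had the lowest ratios for both SREBP2 (39 and 15 fragments, 0.326, 0.167 to 0.604) and H3K27ac (69 and 33, 0.524, 0.335 to 0.804). MCM7, another helicase subunit, was next for SREBP2 (34 and 15, 0.373, 0.189 to 0.704) and lowest for RORγ (20 and 10, 0.553, 0.231 to 1.24). CDKN2C, an inhibitor of CDK4 and CDK6, had the highest SREBP2 ratio (28 and 36, 1.09, 0.646 to 1.85), although its strongest vehicle region, with 38 fragments, was not in the matched pair. It was followed by MCM6 (21 and 22, 0.887, 0.465 to 1.69).

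Other extremes of the list were POLA1, a subunit of DNA polymerase alpha, with a RORγ ratio of 0.653 (0.302 to 1.36) and MAX, the partner of MYC, with 1.47 (0.654 to 3.41). Both of these RORγ intervals included 1. For H3K27ac the S-phase cyclin CCNA2 had 0.693 (0.462 to 1.03), while CDC6, which loads the helicase, had 2.0 (1.18 to 3.49) and MXI1, a MAX-binding repressor, 1.96 (1.44 to 2.69).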

How the data were processed

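Chromatin immunoprecipitation libraries of HCC70 cells were analysed from the deposited peak lists of 6 libraries; the 6 input libraries were not analysed here. Antibody and treatment in the labels gave the groups. Per the labels' processing notes the authors used Bowtie2, MACS2 2.1.0, bedtools and hg19, whereas the methods of the study name BWA. The authors deposited, for each peak, the fold enrichment (summit pileup plus 1 over local background plus 1) and −log10 p and −log10 q values. The display score the authors deposited was not used. Gaps in the peak numbers show that the H3K27ac lists are a selection, by a rule not given in the sources used here.

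Fold and −log10 p were turned back, with the Poisson tail that MACS uses, into fragments at the summit and local background, which gave whole numbers for 98.7 to 100% of regions of a list (tolerance 5% of a step) and was tested on simulated data. Matched regions overlapped by at least 1 bp, and the matched promoter pair with the highest summed level was taken for each gene. Where 1 XY018 region spanned several vehicle regions at a promoter of the 10 genes, the distance between summits is given. Tags per kb, the background over the fragment length, were 5.56 and 5.92 for SREBP2, 4.04 and 3.65 for RORγ, and 6.16 and 5.62 for H3K27ac. Regions on chromosomes 1 to 22 and X, GENCODE 44 lifted to GRCh37, Python 3.11.15, numpy 2.4.6, pandas 2.3.3 and scipy 1.17.1 were used. Intervals were exact Clopper-Pearson, Poisson or conditional binomial.

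The 10 genes, the other lists and the rules were chosen with earlier results of these data known. All 10 genes were named. Of the 50 other genes, those whose promoter call differed between treatments and the 2 highest and 2 lowest ratios per antibody were named, as were the 3 genes nearest to MYC. Sites away from promoters were chosen for their strength after their values were seen. Alternatives changed the q threshold, windows, overlap rule, list length, scaling and genes included. Values of some single genes and sites are not reported here.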

Additional observations from a re-analysis of the deposited data

How the results depend on the processing

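The summed ratios at the 10 promoters moved within their counting intervals under all 39 alternatives, which included leaving out each gene (0.588 to 0.639 for SREBP2, 0.873 to 0.908 for RORγ, 1.29 to 1.35 for H3K27ac), and so did the number of genes with a promoter region in 30 of 30, within 1.5 times. The number of regions at the 10 loci moved by over 1.5 times in 13 of 24. At q of at most 1e-05, SREBP2 had 83 with vehicle and 62 with XY018 and RORγ 57 and 55, and at q of at most 0.01 RORγ had 87 with XY018. With 20 kb either side RORγ had 88 and 83 and H3K27ac 131 and 154, and with 100 kb RORγ had 262 and 213 and H3K27ac 317 and 358. Kept shares left their intervals in 7 of 15. With summits within 100 bp they came to 37.5% (SREBP2), 37.5% (RORγ) and 51.7% (H3K27ac). At q of at most 1e-05 they were 71.1% for SREBP2 and 84.2% for RORγ, with RORγ at 60.4% at q of at most 0.01, and with lists of equal length SREBP2 was at 69.9%. The order of the SREBP2 and RORγ kept shares thus depended on the threshold. Single summits of under about 20 fragments limit a ratio to wide intervals. No paired analysis was possible because each group holds 1 library.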
